A study of Micropterus salmoides with 45 samples.

Results

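Severe and moderate hypoxia were compared after 4 h in liver. The animals were largemouth bass, Micropterus salmoides, a predatory fish of fresh water. The comparison set the 3 libraries of fish held at 1.2 ± 0.2 mg/L dissolved oxygen against the 3 libraries of fish held at 3.0 ± 0.2 mg/L, chosen by their labels, which are 6 of the 45 libraries of the study. All 2660 genes listed in the deposited tables entered, and 2656 of them had at least 1 RPKM in at least 3 libraries and were tested. How the authors chose the listed genes is not given in the labels, and the list may have been selected for differences, so the shares of genes below describe this list and not all genes of the liver. RPKM scales the reads of a gene by its length and by library depth.

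The fish were 6 months old, were kept at 20 °C and were fasted during the trial. They were divided over 9 tanks of 30, with 3 tanks for severe hypoxia, 3 for moderate hypoxia and 3 for the control at 7 mg/L. Nitrogen brought the oxygen down within the hour before the time recorded as 0 h, so a group at 0 h had already met its oxygen level, and liver was taken from each level at 0, 4, 8, 12 and 24 h. No tank held more than 1 oxygen level, so tank and oxygen level cannot be told apart. From which fish and tank a library was made is not in the labels. In the main model, a p-value measures the spread among libraries of the same group, pooled over all groups of the study. The reads of 2 libraries of the same hypoxia group at 4 h differed by a chi-square per gene of 101 to 238. Whether this spread is technical or lies between fish was not tested, and the labels cannot decide it.

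Vertebrate cells sense low oxygen mainly through the hypoxia-inducible factors, transcription factors whose alpha subunits are hydroxylated and degraded while oxygen is plentiful and accumulate when it is scarce. Their targets include genes of glycolysis, glucose uptake, iron handling, red cell formation and blood vessel growth. The liver stores glycogen, releases glucose and handles lipid for the rest of the body, and the study was designed around these functions. The genes here carry only the identifiers of a de novo Trinity assembly, which the files do not pair with names. None of the identifiers matched the RefSeq gene table at hand (ASM1485139v1), so these pathways and the markers of liver cell types could not be looked up. Genes are therefore described by identifier, level and behaviour, and whether a change in the whole liver came from fewer cells of a type or from less RNA per cell cannot be told apart.

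Depth differed little between the libraries. Reads recovered from the RPKM values gave library totals of 30300009 to 33216425 for the 6 libraries, of which the listed genes held 11.3% to 13.0%, and a listed gene had 415 reads in the median. The 3 severe libraries resembled each other, with Pearson correlations of log2(RPKM + 1) across genes of 0.898 to 0.933. Moderate replicates 2 and 3 were as close to each other (0.937), but moderate replicate 1 stood apart from them. Its mean correlation was 0.863 with the other moderate libraries and 0.898 with the severe ones. It lay at least 2-fold from moderate replicate 2 in 541 genes (20.4%), against 269 genes (10.1%) from severe replicate 1 and 169 genes (6.36%) between moderate replicates 2 and 3. Control replicate 3 also stood apart, with a mean correlation of 0.714 with the other controls at 4 h. The main counts and medians at 4 h are given with and without them.

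**Figure D1:**
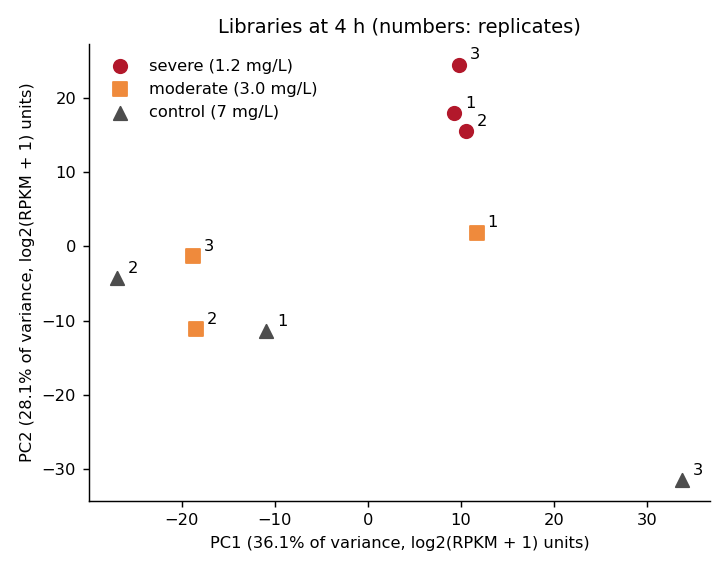
Principal components of log2(RPKM + 1) for the 9 libraries at 4 h, with PC1 (36.1% of the variance) on the x axis and PC2 (28.1%) on the y axis, both in log2(RPKM + 1) units. The 3 severe libraries lie together at 9.32 to 10.52 on PC1 and 15.51 to 24.44 on PC2, moderate replicate 1 lies below them at 11.72 and 1.82, moderate replicates 2 and 3 lie near 2 of the controls, and control replicate 3 lies alone at 33.81 and -31.46.

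After 4 h, 108 of the 2656 genes (4.07%) differed between severe and moderate hypoxia. Of these, 91 (3.43%) were higher and 17 (0.64%) lower in severe hypoxia (limma, Benjamini-Hochberg adjusted p under 0.05 over all tested genes), and 396 (14.9%) had an unadjusted p under 0.05. The 91 higher genes had a median difference of 1.73 on the log2(RPKM + 1) scale, from 0.89 to 5.46, and 32 of them differed at least 4-fold and 11 at least 8-fold on that scale. The 17 lower genes differed less, with a median of -1.15 and a range from -2.49 to -0.80, and 2 of them differed at least 4-fold. The median over all tested genes was -0.04. The pseudocount of 1 RPKM makes these differences smaller than the true ratio for genes of low level.

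**Figure D2:**
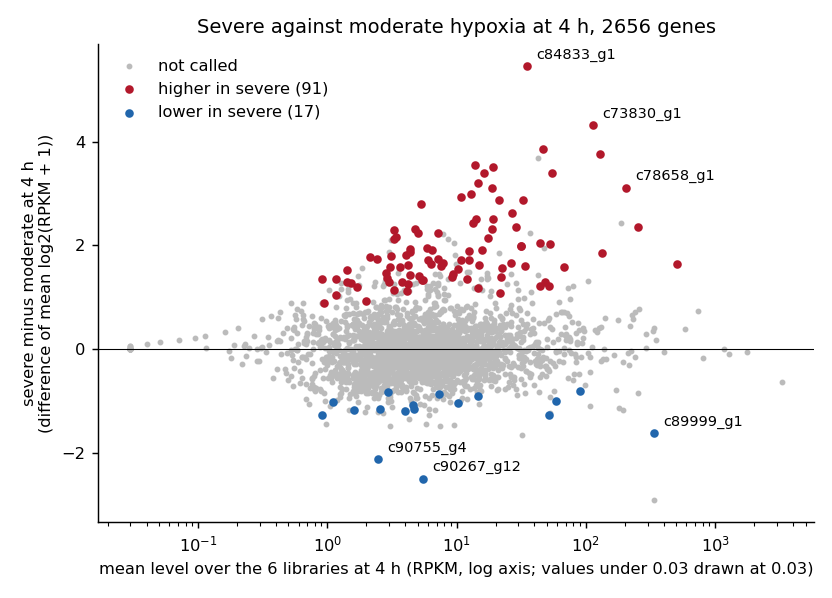
Difference between severe and moderate hypoxia at 4 h (severe minus moderate, mean log2(RPKM + 1), y axis) against the mean level over the 6 libraries (RPKM, log x axis) for 2656 genes. Red points are the 91 genes called higher and blue points the 17 called lower in severe hypoxia. The higher genes reach 5.46 and the lower ones -2.49, and gray points with large differences are genes whose libraries varied too much to pass the test.

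The higher genes covered a wide range of expression. Their mean level over the 6 libraries had a median of 10.2 RPKM and ran from 0.916 to 503 RPKM, against a median of 5.28 RPKM for all tested genes. Calls were more frequent among abundant genes: 8.2% of the 122 genes with 50 RPKM or more were higher, against 4.05% of the 1258 genes from 5 to 50 RPKM, 2.51% of the 1115 from 1 to 5 RPKM and 1.24% of the 161 under 1 RPKM. Lower calls made up 3.28%, 0.318%, 0.717% and 0.621% of the same classes, from the most abundant to the least. Levels and classes used the mean over the same 6 libraries that chose the lists. A rise in severe hypoxia therefore itself raises this mean and can lift a gene to a higher class, and a fall can lower it. The higher median of the higher genes and the order of their shares are thus partly built in. A gene of many reads also has a smaller counting error. How much of this order came from depth or from the choice of classes was not tested.

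Among the 91 genes, 18 were near silent in moderate hypoxia, with a mean under 1 RPKM. Their means in severe hypoxia had a median of 4.06 RPKM and ran from 1.60 to 69.6 RPKM, against a median of 0.366 RPKM in moderate hypoxia. At the other end, 6 genes had a mean of at least 100 RPKM over the 6 libraries, with means of 209 to 749 RPKM in severe hypoxia, 13.7 to 256 RPKM in moderate hypoxia and 15.4 to 227 RPKM in the controls at 4 h. Of the 17 lower genes, 5 had a mean under 1 RPKM in severe hypoxia and 1 reached a mean of 100 RPKM. The 91 genes came from 82 Trinity components and the 17 from 17. In 6 components several genes were higher, 15 genes in all with at most 4 in a component. Such genes can be fragments or copies of a single gene and can share reads, so they are not separate evidence. The assembled lengths had medians of 2566 bp for the higher and 2122 bp for the lower genes, against 2591.5 bp for all tested genes.

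The groups did not overlap in most called genes. All 3 severe libraries lay above all 3 moderate ones in 84 of the 91 higher genes, against 254 (9.56%) of all tested genes. They lay below in 16 of the 17 lower genes, against 215 (8.09%) of all tested genes. Called genes must have well separated groups, so these counts describe the lists and support nothing further. Moderate replicate 1 was the moderate library nearest to severe hypoxia in both lists: it was the highest of its group in 58 of the 91 genes and the lowest in 13 of the 17, and it lay inside the range of the severe libraries in 6 of the 91. Moderate replicate 2 was at the far side, lowest in 51 of the 91 genes and highest in 14 of the 17. Over all 2656 tested genes, moderate replicate 1 was highest in 875, lowest in 1201 and inside the severe range in 1248. Moderate replicate 2 was lowest in 720 of them and highest in 984.

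Without moderate replicate 1, 158 genes were called, 117 higher and 41 lower, and 102 of the 108 genes were among them. The median difference of the 91 genes was then 1.84 and that of the 17 genes -1.23. Without moderate replicate 2, 43 genes were called, 42 higher and 1 lower, and without moderate replicate 3 there were 51, 46 higher and 5 lower. Without severe replicate 1 the count was 70 (60 higher, 10 lower) and without severe replicate 3 it was 63 (57 higher, 6 lower). Of these, 64 and 56 were among the 108. Without severe replicate 2 the count was 106 (99 higher, 7 lower), close to 108, but only 79 of them were among the 108. A fit to the 2 compared groups alone, without the spread of the other 13 groups, called 15 genes, 12 higher and 3 lower. The number of lower genes therefore depended on single libraries. All 108 genes kept their direction in every alternative in which they were tested. The alternatives reused the libraries that chose the list, so a change of direction was hardly possible and this adds no support.

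The largest rise in a gene whose groups did not overlap was that of c84833_g1, 3872 bp long. It was listed at 104, 87.4 and 17.7 RPKM in the 3 severe libraries, from 13355, 11214 and 2082 reads. The moderate libraries had 0.199, 0.316 and 0.273 RPKM, and the controls of the same time 0.112, 0.0671 and 0.719 RPKM. The gene was thus near silent at both higher oxygen levels and expressed in every severe library, with severe replicate 3 well under the other 2. The difference was 5.46 on the log2 scale (SE 0.908, limma, adjusted p = 0.000191). At 0 h the severe libraries averaged 0.55 ± 0.351 RPKM and the moderate ones 0.526 ± 0.766 RPKM (SD, n = 3 each), a log2 difference of 0.10. The log2 difference at the later times was 6.83 (8 h), 5.80 (12 h) and 5.11 (24 h), with severe libraries from 8.66 to 723 RPKM over these times. Its call held in all 16 alternative analyses, with adjusted p from 0.000133 to 0.0316.

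The next rise was that of c73830_g1, 1765 bp long, which was expressed at every oxygen level. The severe libraries had 243, 202 and 199 RPKM, a mean of 215 ± 24.3 RPKM (SD, n = 3). The moderate libraries had 30.4, 4.32 and 6.32 RPKM and the controls 14.5, 3.37 and 28.5 RPKM. The severe libraries agreed closely, and every one of them lay above all moderate and control libraries, while moderate replicate 1 was several times above the other moderate libraries. The log2 difference was 4.33 (SE 0.852, limma, adjusted p = 0.00133). This gene did not follow the same path later. Severe hypoxia stood at 115 ± 45.4 RPKM at 8 h, 112 ± 79.3 RPKM at 12 h and 24.3 ± 9.67 RPKM at 24 h, and moderate hypoxia at 34.7 ± 51.5, 6.75 ± 2.78 and 47.2 ± 17.8 RPKM (SD, n = 3 each). The log2 difference was 3.05 at 8 h (adjusted p = 0.0119), 3.72 at 12 h (adjusted p = 0.0011) and -0.95 at 24 h (adjusted p = 0.489, limma).

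Of the called falls, that of c90267_g12 was the largest, a short assembled gene of 602 bp. Its severe libraries had 1.25, 0.802 and 0.818 RPKM, which rest on 25, 16 and 15 reads. The moderate libraries had 8.00, 11.8 and 10.4 RPKM, and the controls 10.6, 17.1 and 0.269 RPKM. Severe and moderate libraries were far apart, but control replicate 3 lay below all severe libraries. The log2 difference was -2.49 (SE 0.636, limma, adjusted p = 0.0174), with -2.55 at 8 h (adjusted p = 0.00473), -1.70 at 12 h (adjusted p = 0.0317) and 0.76 at 24 h (adjusted p = 0.451). The call at 4 h was lost with the recovered reads in limma-voom (adjusted p = 0.14), without moderate replicate 2 (adjusted p = 0.098) or 3 (adjusted p = 0.068), and without severe replicate 3 (adjusted p = 0.0657). Severe hypoxia was not called against control at 4 h (log2 difference -1.73, limma, adjusted p = 0.0743). From 0 h to 4 h the mean went from 2.085 to 0.957 RPKM in severe and from 4.58 to 10.05 RPKM in moderate hypoxia. Neither change was called. All severe libraries lay below all moderate ones already at 0 h.

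The other named fall was that of c89999_g1, an abundant gene. It had 229, 220.4 and 78.8 RPKM in severe hypoxia, 399, 631 and 463 RPKM in moderate hypoxia and 664, 505.5 and 577 RPKM in the controls at 4 h. All severe libraries lay below all others, and severe replicate 3 was lowest by a wide margin. The log2 difference was -1.62 (SE 0.419, limma, adjusted p = 0.0177). The severe mean was 472 ± 50.0 RPKM at 0 h and 74.7 ± 47.2 RPKM at 12 h. Moderate hypoxia kept 498 ± 120.1 RPKM at 4 h and 511 ± 110.1 RPKM at 12 h, and stood at 120.2 ± 41.8 RPKM at 24 h (SD, n = 3 each), when the severe mean was 119.7 ± 68.6 RPKM. The log2 difference was accordingly -1.54 at 8 h (adjusted p = 0.00968), -2.93 at 12 h (adjusted p = 4.08e-06) and -0.09 at 24 h (adjusted p = 0.925). The call at 4 h was lost in the fit to the compared groups alone (adjusted p = 0.216), without moderate replicate 2 (adjusted p = 0.159) or 3 (adjusted p = 0.0601), and without severe replicate 3 (adjusted p = 0.229).

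**Figure D3:**
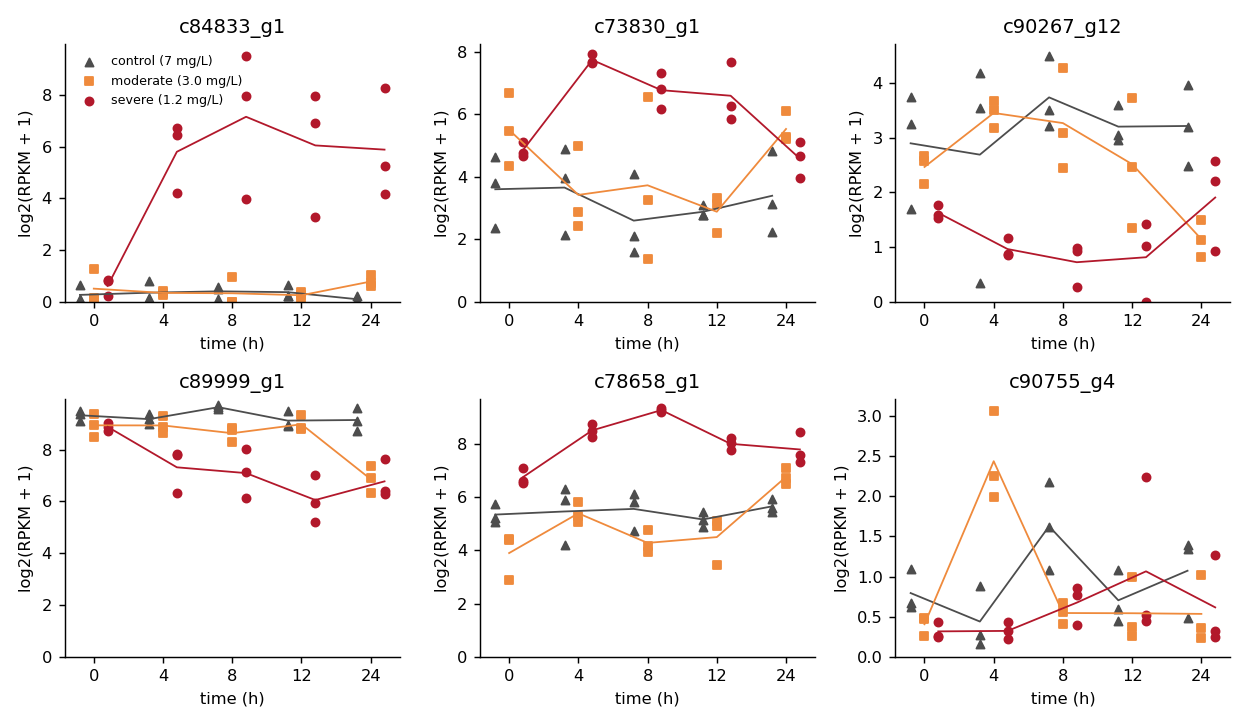
Levels of 6 genes as log2(RPKM + 1) (y axes) in every library at 0, 4, 8, 12 and 24 h (x axes, times evenly spaced), with controls as triangles, moderate hypoxia as squares, severe hypoxia as circles and lines through the group means. At 4 h the severe circles lie above the moderate squares for c84833_g1, c73830_g1 and c78658_g1 and below them for c90267_g12, c89999_g1 and c90755_g4. At 24 h the circles of c73830_g1 have come down and lie below the squares, while the squares of c89999_g1 have come down to the circles.

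The controls at 4 h show on which side the 2 hypoxia levels differed. These comparisons share the severe and moderate libraries with the lists, so the values are given side by side as a description. Across the 91 higher genes the median difference from control was 1.60 for severe and -0.19 for moderate hypoxia on the log2 scale. Without control replicate 3 these medians were 1.71 and -0.03. The control mean lay nearer to the moderate than to the severe mean in 87 of the 91 genes, against 1760 of the 2656 tested genes. Without control replicate 3 these counts were 86 and 1847. Among the 91 genes the order was severe, moderate, control in 28 and severe, control, moderate in 63. Over all tested genes these orders held 663 and 382 genes. Without control replicate 3 the 2 orders held 44 and 47 of the 91 genes. For the 17 lower genes the medians were -1.13 for severe and -0.06 for moderate hypoxia, and the control mean lay nearer to the moderate one in 16. Without control replicate 3 these medians were -0.96 and 0.02.

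Over all tested genes, severe hypoxia differed from control at 4 h in 254 genes (9.56%), 176 higher (6.63%) and 78 lower (2.94%). Moderate hypoxia differed from control in 1 gene (0.0377%), with 231 (8.7%) at an unadjusted p under 0.05 (limma). Neither count says that moderate hypoxia left the other genes unchanged: without control replicate 2, 66 genes were called between moderate hypoxia and control, without control replicate 1 there were 3 and without control replicate 3 there was 1. Severe hypoxia differed from control in 282 genes without control replicate 3, in 138 without severe replicate 3 and in 3 genes in the fit to the compared groups alone.

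The gene called between moderate hypoxia and control was c90755_g4, 7102 bp long. It also had the second lowest of the called differences of severe minus moderate hypoxia. It had 3.78, 7.36 and 2.97 RPKM in the moderate libraries at 4 h. The severe libraries had 0.250, 0.161 and 0.347 RPKM and the controls 0.114, 0.210 and 0.848 RPKM. All 3 moderate libraries thus lay above all severe and control ones of that time. Moderate hypoxia was higher than control by 2.0 on the log2 scale (SE 0.359, limma, adjusted p = 0.00705) and higher than its own 0 h by 2.03 (adjusted p = 0.00526). Severe minus moderate was -2.11 (SE 0.359, adjusted p = 0.000216). Moderate means at the neighbouring times were 0.328 ± 0.117 RPKM (0 h) and 0.463 ± 0.135 RPKM (8 h, SD, n = 3 each). Levels above moderate replicate 3 at 4 h were also seen outside moderate hypoxia, in control replicate 2 at 8 h (3.51 RPKM) and severe replicate 2 at 12 h (3.71 RPKM). Severe minus moderate was 0.13 at 8 h, 0.52 at 12 h and 0.08 at 24 h, none called. The call of moderate hypoxia against control was lost with a pseudocount of 0.1 RPKM (adjusted p = 0.0627), in limma-voom (adjusted p = 0.081), in the fit to the compared groups alone (adjusted p = 1) and without moderate replicate 2 (log2 1.68, adjusted p = 0.138). That of severe against moderate held in all 15 alternatives that tested it.

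The groups at 0 h show how much of the difference preceded the 4 h of exposure. They share no library with the groups at 4 h, although the tanks of a level were the same. At 0 h, 1 gene (0.0377%) was called between severe and moderate hypoxia (9 without moderate replicate 2, 3 and 4 without severe replicates 1 and 2), and 109 (4.1%) had an unadjusted p under 0.05. Across the 91 genes the median difference at 0 h was 0.46, against 1.73 at 4 h and a median of -0.04 over all tested genes at 0 h. It was above 0 in 74 of the 91, against 1164 of the 2656 tested genes. All severe libraries lay above all moderate ones at 0 h in 40 of the 91 genes, against 164 (6.17%) of all tested genes, and below in 2. For the 17 genes the median at 0 h was -0.11, with 14 below 0, against 1469 of the 2656 tested genes. All severe libraries lay below all moderate ones in 2 of the 17, against 179 (6.74%) of all tested genes. Part of the difference of the higher genes was thus present at 0 h, which lay after the fall in oxygen, while the lower genes had little of it.

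The 1 gene called at 0 h was c78658_g1, which was also among the 91. At 4 h it had 362, 433 and 306 RPKM in severe, 38.0, 55.2 and 32.8 RPKM in moderate and 77.3, 59.2 and 17.2 RPKM in control libraries. Severe libraries lay several times above all others. The log2 difference between severe and moderate hypoxia was 3.12 at 4 h (SE 0.433, limma, adjusted p = 9.12e-06) and 2.85 at 0 h (adjusted p = 0.000291), where the means were 108 ± 23.8 RPKM in severe, 15.6 ± 7.87 RPKM in moderate and 40.5 ± 10.96 RPKM in control libraries (SD, n = 3 each). The call at 0 h was lost in the fit to the compared groups alone (adjusted p = 0.196). The difference reached 4.99 at 8 h (adjusted p = 2.91e-10), was 3.51 at 12 h and fell to 1.03 at 24 h (adjusted p = 0.0904), when moderate hypoxia stood at 109 ± 22.9 RPKM.

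Whether the difference between the levels grew from 0 h to 4 h was tested as an interaction. No gene passed (0 of 2656, limma), and none passed without the intensity trend or in limma-voom, while 199 genes (7.49%) had an unadjusted p under 0.05. The lowest adjusted p was 0.0809 for the 91 genes and 0.104 for the 17. The median change of the difference was 1.29 for the 91 genes and -0.88 for the 17, with 53 of the 91 and 11 of the 17 at an unadjusted p under 0.05, on libraries that also chose the lists. Without moderate replicate 1 at 4 h 5 genes were called, without moderate replicate 2 at 0 h 3, and without severe replicate 1 at 4 h 2.

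The change from 0 h was also read within each level, on libraries at 4 h that chose the lists, so a rise in severe and a fall in moderate hypoxia is partly fixed by that choice. From 0 h to 4 h the 91 genes had a median change of 0.996 on the log2 scale in severe hypoxia and -0.27 in moderate hypoxia. The mean over libraries of the median level of the 91 genes was 2.69 ± 0.116 at 0 h and 3.86 ± 0.196 at 4 h in severe hypoxia (log2(RPKM + 1), SD, n = 3). In moderate hypoxia it was 2.22 ± 0.204 at 0 h and 1.80 ± 0.524 at 4 h, and in control 2.11 ± 0.485 at 4 h. For the 17 genes the median change was -0.72 in severe and 0.16 in moderate hypoxia. Over all tested genes, severe hypoxia differed from its own 0 h in 19 genes (0.715%), 16 higher (0.602%) and 3 lower (0.113%), and moderate hypoxia from its own in 1 (limma).

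The later times used other libraries, so their group means give a second reading of the lists in tanks that were the same. The calls are less separate, since a gene had the same spread estimate at all times, from all libraries. Genes called at 4 h were chosen partly for a small spread, which also helps a call at later times. The shares of calls in both lists are therefore partly raised by that choice. The median difference of the 91 genes was 1.75 at 8 h, 1.74 at 12 h and 0.65 at 24 h. It was above 0 in 90, 89 and 76 of them, against 1259, 1392 and 1582 of the 2656 tested genes. At 8 h, 71 of the 91 (78.0%) were called higher, against 247 (9.3%) of all tested genes, so that they made up 28.7% of the genes higher at 8 h. At 12 h, 72 (79.1%) were called higher, against 685 (25.8%), of which they made up 10.5%. At 24 h it was 28 (30.8%), against 398 (15%), of which they made up 7.04%. With both lists joined and redrawn each time, 82 genes were called in the same direction at 4 and 8 h, 84 at 4 and 12 h and 28 at 4 and 24 h. Without moderate replicate 2 at 4 h these counts were 39, 33 and 16, without moderate replicate 3 they were 43, 40 and 17, and without severe replicate 3 they were 47, 45 and 18. Without moderate replicate 1 at 24 h, 16 were called at 4 and 24 h. All severe libraries lay above all moderate ones in 68 of the 91 genes at 8 h, 77 at 12 h and 47 at 24 h, against 14.1%, 30.2% and 30.7% of all tested genes. None of the 91 was called lower at 0, 8, 12 or 24 h.

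The 17 lower genes were read in the same libraries. Their median difference was -1.02 at 8 h, -0.98 at 12 h and -0.12 at 24 h. At 8 h, 11 of the 17 (64.7%) were called lower, against 116 (4.37%) of all tested genes. At 12 h it was 12 (70.6%) against 385 (14.5%), and at 24 h 0 against 83 (3.12%). None of the 17 was called higher at these times. The medians over all tested genes were -0.04 at 8 h, 0.08 at 12 h and 0.17 at 24 h. They rose between 12 and 24 h, while the median of the 91 genes fell. Over the same times the calls among all tested genes became fewer, from 685 to 398 higher and from 385 to 83 lower.

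**Figure D4:**
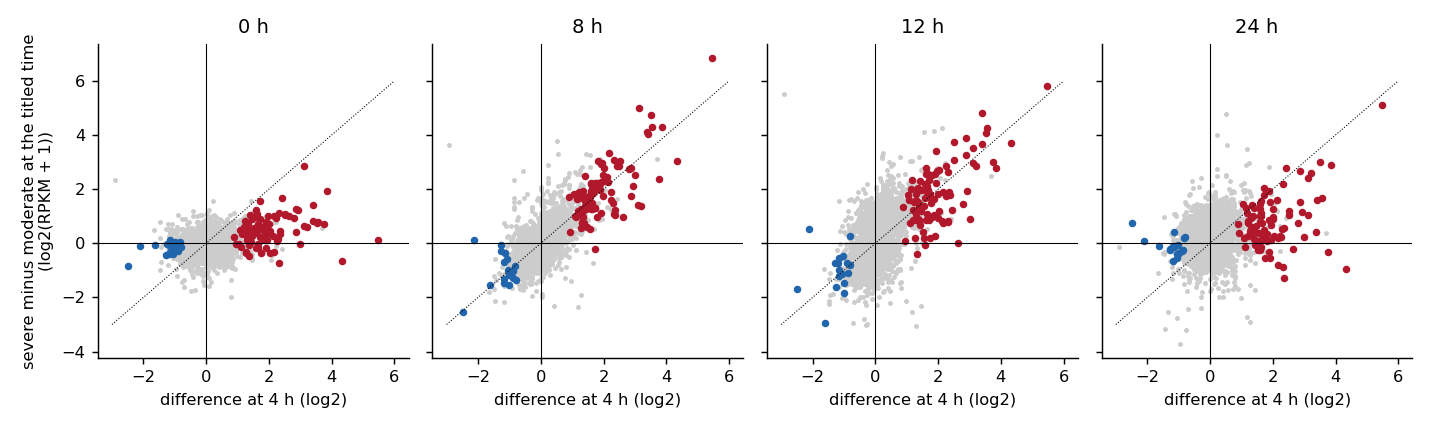
Severe minus moderate hypoxia (log2(RPKM + 1)) at 0, 8, 12 and 24 h (y axes, 1 panel per time) against the same difference at 4 h (x axes) for 2656 genes, with the 91 genes higher at 4 h in red, the 17 lower ones in blue and equal differences on the dotted line. The red points centre near 0.46 at 0 h, lie along the line at 8 h (median 1.75) and 12 h (1.74), and come down to a median of 0.65 at 24 h.

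The difference was smaller at 24 h in part of these genes. The difference at 24 h was tested against the mean of those at 8 and 12 h. This test was added after the values had been seen. Its group means used no library at 4 h, but its spread estimate came from all 45 libraries, those at 4 h included. It called a smaller difference in 21 of the 91 genes and a larger one in 0. Over all tested genes the counts were 45 (1.69%) more negative and 65 (2.45%) more positive (limma). The median of this change was -0.95 for the 91 genes and 0.14 for all tested genes. It was below 0 in 78 of the 91, against 1096 of the 2656 tested genes. For the 17 genes the median was 0.74, with 5 called and 16 above 0, against 1559 of all tested genes above 0. All tested genes include those with no call at 8 and 12 h, so they are not a like background. Of the 178 genes called higher at both 8 and 12 h, 97 were not called at 24 h. Among the 91 these counts were 61 and 36. Of the 73 genes called lower at both times, 69 were not called at 24 h, and among the 17 all 9 were not. Both levels moved. Relative to the controls of the same time, the 91 genes at 8, 12 and 24 h stood at medians of 1.92, 1.92 and 1.24 in severe hypoxia and 0.27, 0.12 and 0.62 in moderate hypoxia. The 17 genes stood at -1.14, -1.20 and -0.75 in severe and at -0.08, -0.28 and -0.57 in moderate hypoxia.

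**Figure D5:**
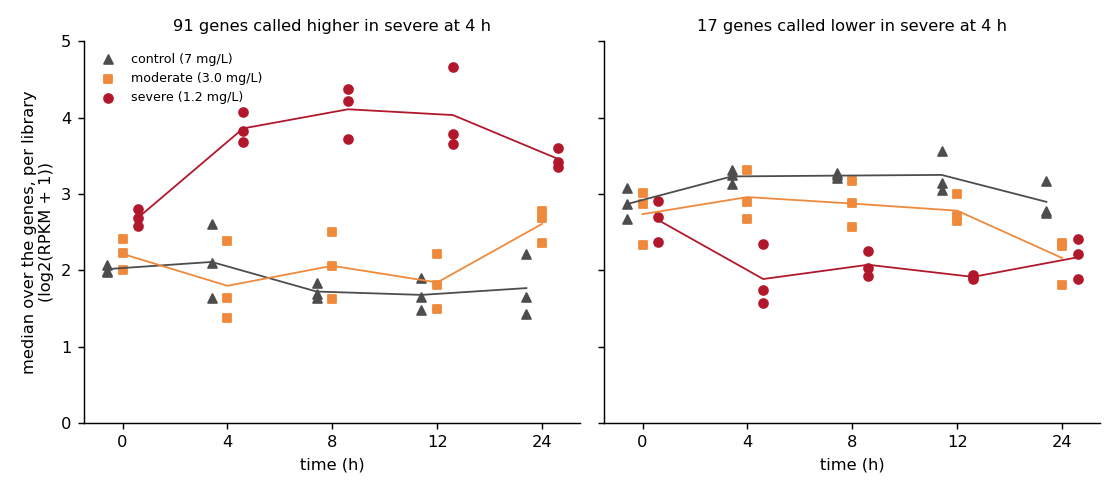
Median log2(RPKM + 1) over the 91 higher genes (left) and the 17 lower genes (right) in each library (y axes) at 0, 4, 8, 12 and 24 h (x axes, times evenly spaced), with controls as triangles, moderate hypoxia as squares, severe hypoxia as circles and lines through the means of the libraries. For the 91 genes the severe circles lie above the squares already at 0 h and farther above them at 4 h, where the lists were chosen. For the 17 genes circles and squares overlap at 0 h, and the circles lie below at 4 h. Severe and moderate hypoxia are closer at 24 h than at 4 h. They stand there at 3.46 ± 0.128 against 2.61 ± 0.218 for the 91 genes (SD, n = 3). For the 17 they stand at 2.17 ± 0.261 against 2.16 ± 0.305 (SD, n = 3).

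By the times at which they were called, the 91 genes fell into several groups. In 25 genes severe hypoxia was higher at 4, 8, 12 and 24 h, with median differences of 1.72, 1.94, 2.21 and 1.45, and c84833_g1 was among them. In 36 genes it was higher at 4, 8 and 12 h and not called at 24 h, with medians of 1.76, 2.04, 1.94 and 0.36, and c73830_g1 and c78658_g1 were among them. In 9 genes it was called at 4 h and at none of 8, 12 and 24 h, with medians of 1.74, 0.77, 0.20 and 0.35. The other 21 genes had further combinations. Of the 17 lower genes, 9 were lower at 4, 8 and 12 h and not at 24 h, c90267_g12 and c89999_g1 among them, and 3 were called at 4 h only, c90755_g4 among them. Of all 2656 tested genes, called at 4 h or not, 81 were called higher at 8, 12 and 24 h. At 8 and 12 h and not at 24 h, 97 were called higher and 69 lower. The groups follow from a threshold at each time, and a missing call does not show that the difference was gone.

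Whether the difference changed among 4, 8, 12 and 24 h was tested for every gene with an F-test in limma. It passed in 220 of the 2656 genes (8.28%), and 718 (27%) had an unadjusted p under 0.05. Among them were 21 of the 91 higher and 6 of the 17 lower genes, which were chosen with the libraries at 4 h. Without moderate replicate 3 at 12 h the test passed in 146 genes and without moderate replicate 1 at 24 h in 143. Set against 4 h alone, the difference at 24 h was called more negative in 20 of the 91 genes and more positive in 0. Over all tested genes the counts were 35 (1.32%) more negative and 79 (2.97%) more positive (limma). The 91 genes were chosen for a large difference at 4 h, so a smaller one later is partly fixed by that choice. These counts therefore add no support.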

How the data were processed

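Liver RNA was sequenced from TruSeq libraries (125-bp read pairs), and the cleaned reads were assembled with Trinity, per the labels' protocols. The authors deposited 1 table per library with values scaled by gene length and library total, read here as RPKM from the values themselves, since the headers name no unit. The sources used here do not give the aligner, the counter or the way in which the 2660 genes were selected. With 1 whole length per gene and 1 whole total per library, all 117443 values above 0 became whole reads within 0.01 (29986862 to 33433838 reads per library), which served as depth and in limma-voom as an alternative. For control 8 h replicate 2, 2527 genes were used, and 133 values were treated as missing.

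The RPKM values were tested as log2(RPKM + 1) in limma 3.58.1 (R 4.3.3). The model held 15 group means over all 45 libraries, with an intensity trend and Benjamini-Hochberg adjustment over 2656 genes. It was also run on simulated data. In these no library stood apart from its group, so that run does not bear on the influence of single libraries. Genes were called at an adjusted p under 0.05. The genes named are the 2 largest rises and 2 largest falls between severe and moderate hypoxia at 4 h among the called ones that averaged at least 5 RPKM with no overlap of the 6 libraries, and the sole gene called in any other comparison. F-tests, interactions and comparisons with control came from the same model. Alternatives were other filters, pseudocounts, scalings, variance models and sets of libraries, and each library left out in turn. The genes, lists and rules were chosen with earlier results of these data known. Lists of pathway and cell type genes could not be applied. The lowest chi-square per gene between any 2 of the 6 libraries was 101, so none was a duplicate.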

Additional observations from a re-analysis of the deposited data

Results flagged for a closer look

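Flagged here are results in which the difference between severe and moderate hypoxia itself changed among 4, 8, 12 and 24 h, by an F-test in limma adjusted over all tested genes. It did so in 220 genes. For c73830_g1 (adjusted p = 0.0128) the log2 difference went from 4.33 at 4 h to -0.95 at 24 h, as severe hypoxia fell to 24.3 RPKM and moderate hypoxia stood at 47.2 RPKM. For c89999_g1 (adjusted p = 0.014) it went from -1.62 at 4 h to -2.93 at 12 h and -0.09 at 24 h. For c90267_g12 (adjusted p = 0.036) it went from -2.49 at 4 h to 0.76 at 24 h. For c78658_g1 (adjusted p = 0.0004) it was 3.12 at 4 h, 4.99 at 8 h and 1.03 at 24 h. For c90755_g4 (adjusted p = 0.00208) it was -2.11 at 4 h and between 0.08 and 0.52 at the later times. The gene c78658_g1 was named for its call at 0 h. For the other genes, values at 4 h that enter the F-test were part of the choice.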

How the results depend on the processing

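The counts depended on the spread estimate and on single libraries, and the cause of each move was not tested. Of the genes called between severe and moderate hypoxia at 4 h (108, 91 higher and 17 lower), the fit to the compared groups alone gave 15 (12 and 3), limma-voom on recovered reads 63 (55 and 8), and a mean of at least 5 RPKM 67 (56 and 11). Quantile scaling gave 27 lower. Leaving out 1 library gave 43 to 158, with 42 to 117 higher and 1 to 41 lower. Of the genes called at 4 h in each setting, those also called in the same direction at 8 h numbered 82, with 12 in the compared groups alone, 52 in limma-voom, 52 at the higher filter and 39 to 102 without a library. At 12 h they numbered 84, with 8 in the compared groups alone, 51 in limma-voom and 33 to 117 without a library. At 24 h they numbered 28, with 7 in the compared groups alone, 17 in limma-voom, 18 with quantile scaling and 16 to 36 without a library. At 0 h the 1 call became 0 in the compared groups alone and 1 to 9 without a library, the most without moderate replicate 2 at 0 h. The interaction of 0 calls became 1 at the higher filter and 0 to 5 without a library. The F-test among times called 220, with 140 in the compared groups alone, 110 in limma-voom, 86 at the higher filter, 143 with quantile scaling and 143 to 320 without a library, the fewest without moderate replicate 1 at 24 h. Severe hypoxia against control called 254, with 3 in the compared groups alone, 145 at the higher filter and 138 to 342 without a library. Moderate hypoxia against control called 1, with 0 in the compared groups alone, in limma-voom, at the higher filter and with a pseudocount of 0.1 RPKM, and 0 to 66 without a library. All-gene scaling, the intensity trend, the low filter and the pseudocount otherwise left the count at 4 h between 85 and 117.

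Replicate numbers are shared by the groups. Deviations from the group means at 4 h correlated at -0.026, 0.113 and 0.176 between same-numbered severe and moderate libraries. Between differently numbered ones the correlations ran from -0.213 to 0.133. With 3 libraries per group these values cannot decide whether same-numbered libraries belong together. The main comparison was not paired. With the replicate block, 101 genes were called, 85 higher and 16 lower, of which 98 were among the 108.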

Other observations

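The largest fall by size alone, chosen after its values were seen, was that of c86594_g4, which did not pass the test at 4 h (log2 difference -2.91, SE 1.77, limma, adjusted p = 0.476). The gene was either abundant or near 0. It had at least 50 RPKM in 40 of the 45 libraries and under 5 RPKM in the other 5, with none between. At 4 h the severe libraries had 602, 192 and 0.263 RPKM and the moderate ones 392, 295 and 537 RPKM, so the fall came from severe replicate 3. The other near-silent libraries were moderate hypoxia at 0 h replicate 3 (0.164 RPKM), at 8 h replicate 1 (0.42 RPKM) and at 12 h replicates 1 and 3 (0 and 0.414 RPKM). At 12 h this gave a called difference of 5.51 (limma, adjusted p = 0.0142) although severe libraries had 334, 351 and 378 RPKM, within the range of the controls.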
